A study of Vitis vinifera with 2 samples.

Results

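The transposable elements (TEs) of grapevine chromosome 17 were examined for cytosine methylation in leaf and in embryogenic callus (EC). The members were all TEs of the deposited TE tables that lie on the placed part of chromosome 17, which gave 6808 of 184251 TEs (3.69%). The chromosome was chosen by its mean CG change over both classes of TE, EC minus leaf, which was -0.232 percentage points. Of the 19 chromosomes, chromosome 6 lay below it at -1.87 and chromosome 18 was the next above it at 0.954. These values chose the members and the other changes described here come from the same pair of libraries, so all of them are descriptions and no test between tissues was made.

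Both libraries were prepared from genomic DNA of Vitis vinifera cv. Chardonnay for whole-genome bisulphite sequencing, 1 from young leaf tissue and 1 from proliferating EC. The labels name no treatment, transgene or allele for either. DNA libraries carry no expression markers by which the tissues could be checked. EC is a culture of dividing cells, raised here from anthers, that can regenerate plants through somatic embryos. Several leaves were pooled for a leaf sample and several culture dishes for an EC sample. Whether those of 1 sample came from separate plants or callus lines is not stated. With 1 library per tissue, a difference between tissues cannot be told apart from a difference between these libraries.

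Plants methylate cytosines in 3 sequence contexts, CG, CHG and CHH, with H for any base but G. CG methylation is copied after DNA replication by MET1, CHG methylation is kept by chromomethylases that are guided by histone H3 lysine 9 methylation, and CHH methylation has to be set anew by DRM2 with small RNAs or by CMT2. TEs usually carry all of them, which keeps the elements silent. In the bodies of transcribed genes, CHG methylation is held in check by IBM1, which removes histone H3 lysine 9 methylation. These roles are known from Arabidopsis.

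Of the 6808 TEs, 1955 (28.7%) were genic, meaning that they overlapped a gene annotation by at least 1 bp, and 4853 were intergenic. On the other 18 chromosomes 23.6% of TEs were genic. The median TE length was 313.5 bp on chromosome 17 and 314 bp elsewhere. A TE is listed in a context only if it passed the authors' coverage filter there. In all, 3495 TEs of chromosome 17 (51.3%) were listed in all 3 contexts and 1927 in CHH alone, compared with 47.7% in all 3 contexts on the other chromosomes. The tables carry no read numbers, so the depth behind each value is unknown.

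In EC, the CG level of intergenic TEs of chromosome 17 was almost the same as in leaf, at 84.0% in both tissues over 2927 TEs, a mean change of 0.0445 percentage points (SD over TEs 13.9). On the other 18 chromosomes the same class went from 81.5% in leaf to 85.0% in EC, a change of 3.47. Chromosome 17 therefore lacked the higher CG level in EC that most chromosomes had in their intergenic TEs. Its leaf level was the 4th highest and its EC level the 13th highest of the 19 chromosomes. The EC level lay within 1 SD of the other chromosome means (84.9% ± 2.03, SD, n = 18). The leaf level lay just over 1 SD above them (81.4% ± 2.31), and their mean change was 3.47 ± 1.61. The chromosome means of the change ran from -1.59 on chromosome 6 to 5.71 on chromosome 1, with chromosome 17 second lowest.

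Genic TEs of chromosome 17 had a mean CG level of 84.2% in leaf and 83.3% in EC over 1170 TEs, a change of -0.922 percentage points (SD over TEs 12.7), against 0.576 on the other chromosomes. This was the third lowest of 19 chromosomes, above chromosomes 6 and 18. Over both classes, 2198 of 4097 TEs (53.6%) were higher in EC, compared with 63.3% elsewhere. The median CG change of the chromosome was positive, at 0.57 percentage points, so its negative mean rests on the TEs with much lower methylation in EC. The 5th percentile of the change was -21.2 points on chromosome 17 and -16.1 elsewhere, and the 95th percentile was 17.9 and 23.8.

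CHG methylation went in opposite directions in the 2 classes. In genic TEs it was 46.2% in leaf and 34.5% in EC, a change of -11.6 percentage points over 1324 TEs, against -9.94 elsewhere. In intergenic TEs it was 64.0% in leaf and 70.7% in EC, a change of 6.68 over 2956 TEs, against 9.21 elsewhere. The intergenic change was the second lowest of 19 chromosomes by mean and by median. The genic change was the third lowest by mean and the 8th lowest by median. The difference from the other chromosomes was -1.70 for genic TEs, and -0.37 as a median. It was -0.601 when the others were weighted to the share of genic TEs in its windows (gene share). For intergenic TEs it was -2.53, and -1.54 and -1.47 when the others were weighted to its leaf levels and to its gene share. The EC level of intergenic CHG was close to that of the other chromosomes (70.9%), whereas the leaf level was higher than theirs (61.7%).

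CHH methylation was low in leaf and far higher in EC. Genic TEs had 2.0% in leaf and 16.4% in EC, a change of 14.4 percentage points over 1954 TEs, and intergenic TEs had 3.10% and 34.8%, a change of 31.7 over 4845 TEs. On the other chromosomes the changes were 15.5 and 31.6. In this context chromosome 17 stood in the middle of the chromosomes for intergenic TEs, 12th from the lowest, and 7th for genic TEs. By the median change, which was 32.0 in intergenic TEs, the chromosome was 4th from the lowest for that class, so its rank in CHH depends on the measure.

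**Figure D1:**
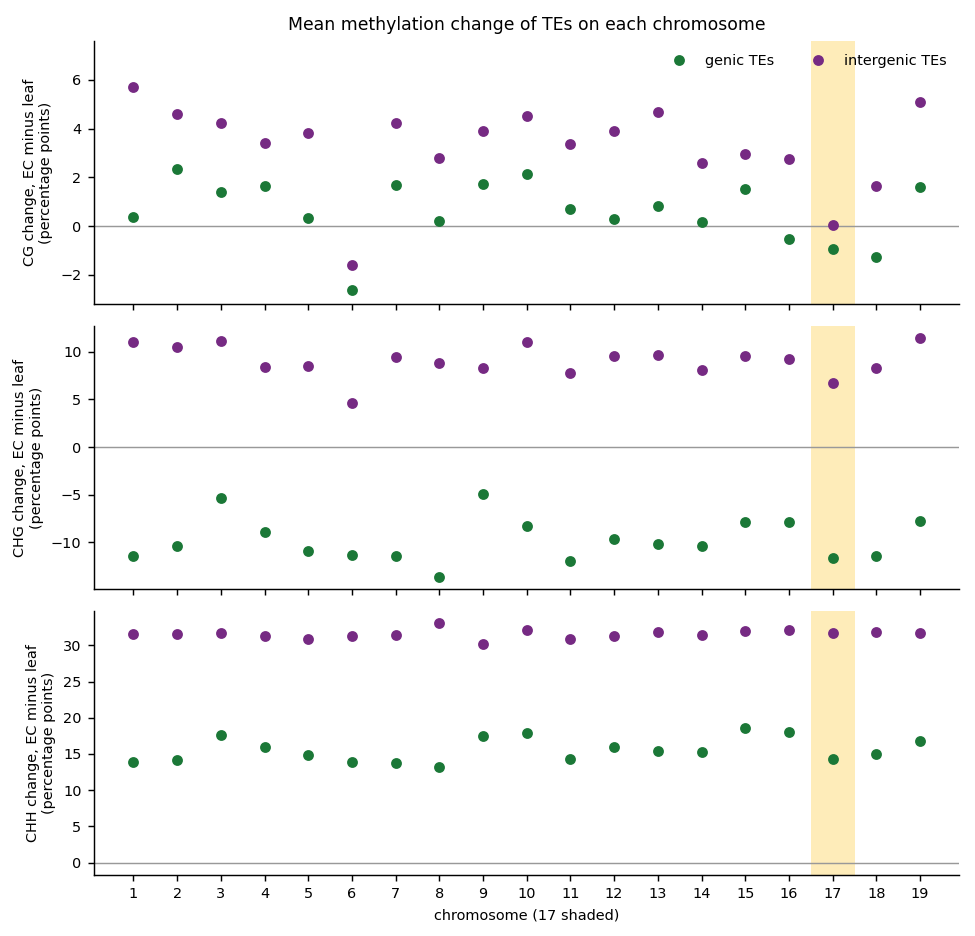
Mean methylation change of TEs, EC minus leaf in percentage points, for each of 19 chromosomes (x axis), with 1 panel per context and 1 point per class of TE. Chromosome 17 (shaded) has an intergenic CG change of 0.0445, above chromosome 6 alone, and an intergenic CHH change of 31.7 that lies among the others.

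To describe single elements, those with a difference of 10 percentage points or more between the tissues were counted. Among intergenic TEs of chromosome 17, CG methylation was at least 10 points higher in EC in 373 (12.7%) and at least 10 points lower in 396 (13.5%). Over all TEs of the tables, the shares were 19.8% and 8.47%. On chromosome 6 they were 11.5% and 18.5%. On chromosome 17 TEs far below and far above their leaf level in CG were about equally frequent, whereas over all TEs the higher ones outnumbered the lower ones. Chromosome 17 was chosen by its mean CG change, which favours this balance. Among genic TEs, 113 (9.66%) were higher by this margin and 157 (13.4%) lower, against 12.4% and 11.2% over all TEs.

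In CHG, 133 genic TEs of chromosome 17 (10.05%) were at least 10 points higher in EC and 544 (41.1%) lower, against 13.9% and 40.7% over all TEs. Intergenic TEs were higher by this margin in 1295 cases (43.8%) and lower in 391 (13.2%), against 51.8% and 12.3%. For CHG, the chromosome therefore had a smaller share of TEs much higher in EC than the series in both classes, and a share of much lower ones near that of the series. In CHH, 985 genic TEs (50.4%) were at least 10 points higher and 2 were lower, against 52.8% and 0.0369% over all TEs. For intergenic TEs the counts were 4372 higher (90.2%) and 1 lower, against 89.7% and 0.0377%, which is near the series as a whole.

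**Figure D2:**
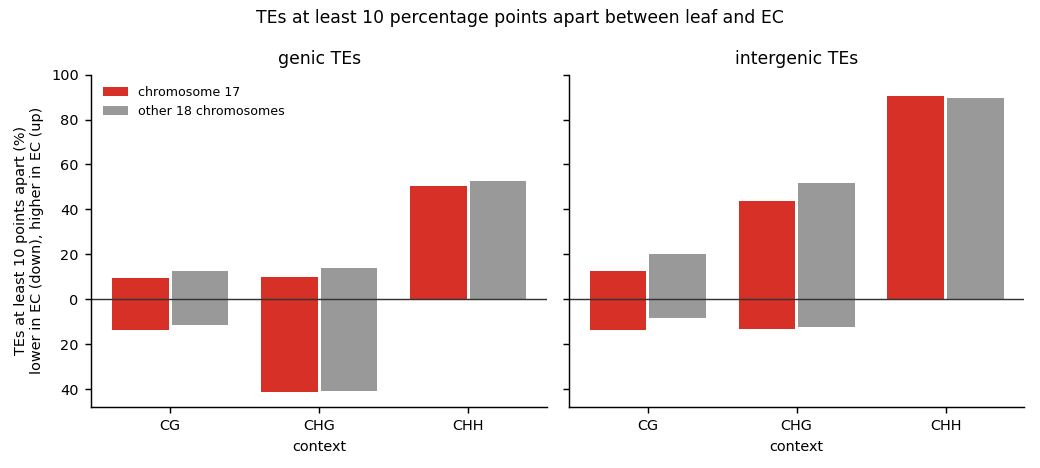
Percentage of TEs (y axis) that were at least 10 percentage points higher in EC (bars upward) or lower (bars downward), by context (x axis), for chromosome 17 and the other 18 chromosomes. For intergenic CG the upward bar of chromosome 17 is 12.7% and the downward bar 13.5%, against 20.03% and 8.45% on the others.

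The lower CG change than elsewhere, which the choice of the chromosome favoured, was found at every TE length. For intergenic TEs, chromosome 17 minus the others ran from -2.23 percentage points in the 547 TEs under 200 bp to -4.26 in the 684 TEs of 500 to under 1000 bp, and it was -3.38 in the 267 TEs of at least 3000 bp. For genic TEs the difference was largest in short elements, at -2.51 under 200 bp, and smallest at 1000 to under 3000 bp, at -0.266. Short TEs hold few cytosines, whose part in the spread of values was not tested. The SD of the CG change over genic TEs under 200 bp was 17.4, compared with 12.7 over all genic TEs of the chromosome. In CHG and CHH the genic TEs under 200 bp did not spread most. Their SDs were 21.9 and 13.3, against 23.3 and 15.2 at 200 to under 500 bp.

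The change was also examined by the level in leaf. The leaf level is part of the change, so noise in it alone can make low classes rise and high classes fall on every chromosome. This limit applies to both classes of TE, to all contexts and to the weighted value below. Chromosome 17 had more intergenic TEs at 90% or above in leaf CG than the other chromosomes, 42.7% against 36.4%, and fewer at 20 to under 60%, 4.54% against 7.05%. The CG change was lower than elsewhere at every leaf level. In intergenic TEs that began at 20 to under 60%, it was 14.4 on chromosome 17 (133 TEs) and 19.6 elsewhere. In those that began at 60 to under 80% it was 4.39 (433 TEs) and 8.72. In those at 90% or above it was -4.03 (1251 TEs) and -2.45. When the other chromosomes were weighted to the leaf levels of chromosome 17, the difference for intergenic CG was -2.31 percentage points, compared with -3.42 without weights. The part of the leaf level in the difference was not tested further.

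Genic TEs followed the same order by leaf level, with the widest gap in the class of 20 to under 60% (3.67 against 11.0, 43 TEs) and the narrowest at 90% or above (-3.61 against -3.09, 532 TEs). Genic CHG showed a gap in the middle of the range. For TEs at 20 to under 60% CHG in leaf the change was -14.7 on chromosome 17 (276 TEs) and -9.73 elsewhere, whereas for those at 80 to under 90% it was -19.9 and -20.3. For intergenic CHG the change was lower than elsewhere below 90% and higher at 90% or above (-6.43 against -8.55, 116 TEs). In CHH, the difference from the other chromosomes ran from -1.97 to -0.783 percentage points over the leaf levels of genic TEs and from -0.670 to 1.61 over those of intergenic TEs.

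**Figure D3:**
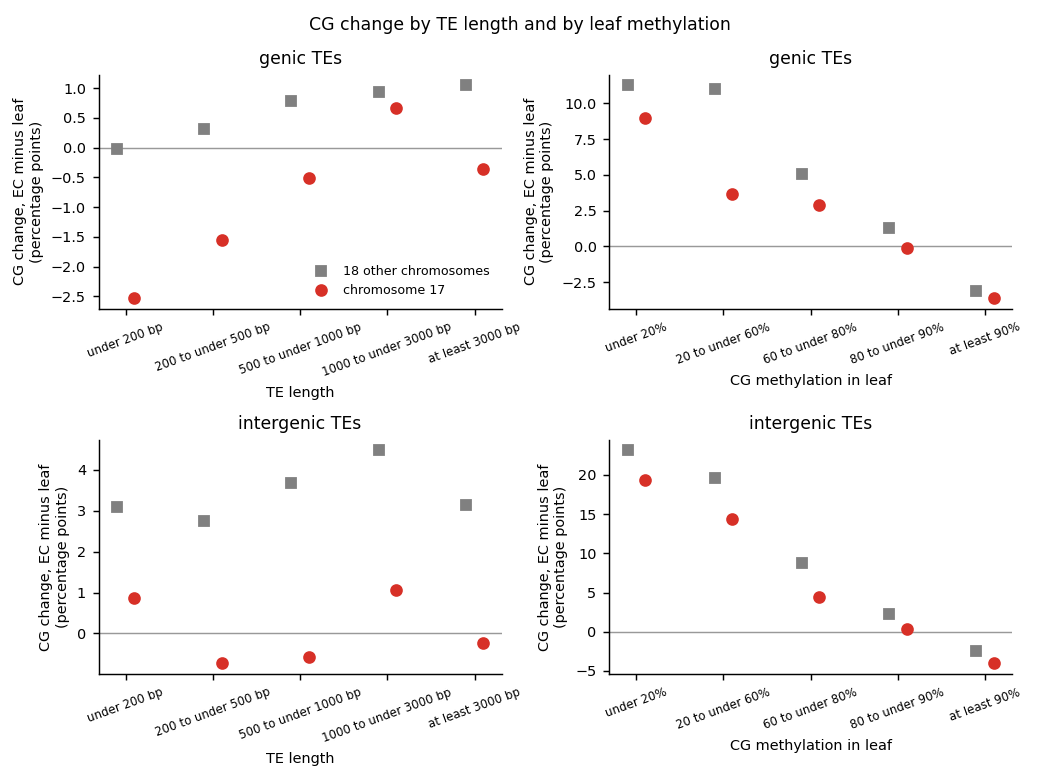
Mean CG change, EC minus leaf in percentage points (y axis), by TE length (left) and by CG level in leaf (right), for genic TEs (top) and intergenic TEs (bottom). Chromosome 17 (circles) lies below the 18 other chromosomes (squares) in every class, with a difference from -0.266 for genic TEs of 1000 to under 3000 bp to -7.36 for genic TEs at 20 to under 60% in leaf.

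The levels of single elements were also sorted by whether they were high (60% or more) or low (under 20%). Genic TEs of chromosome 17 with low CHG went from 33.1% of TEs in leaf to 45.7% in EC, and those with high CHG from 46.1% to 27.0%. Of the 610 genic TEs with high CHG in leaf, 63 (10.3%) were low in EC, against 8.89% elsewhere. In intergenic TEs 30 of 2113 (1.42%) did so, against 1.53%. A switch between high and low was rare in CG. In genic TEs it went from high to low in 6 (0.513%) and from low to high in 1 (0.0855%), against 0.217% and 0.177% elsewhere. In intergenic TEs the counts were 11 (0.376%) and 10 (0.342%), against 0.259% and 0.476%.

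The contexts were compared in TEs listed in all 3. Chromosome 17 was chosen by its CG change, which favours a larger share of TEs lower in CG. Of its 2480 such intergenic TEs, 740 (29.8%) were lower in CG and higher in CHG in EC, against 21.7% elsewhere. Another 1102 (44.4%) were higher in both, against 57.0%. On chromosome 6 these shares were 32.8% and 36.5%. On chromosome 17, CHH was higher in 739 of those 740 TEs, with a mean change of 35.4 percentage points. Elsewhere it was higher in 13412 of 13423, with a mean change of 35.3. Over all intergenic TEs listed in CHH, 98.5% were higher on chromosome 17 and 98.4% elsewhere. The 35.4 points were close to the 35.7 of the TEs of chromosome 17 that were higher in both. The CHH change was 25.6 in the 376 TEs that were lower in both. In 1015 genic TEs, 334 (32.9%) were lower in both CG and CHG, against 29.98% elsewhere. Those higher in CG and lower in CHG were 326 (32.1%), against 32.3%. A further 182 (17.9%) were higher in both, against 22.2%, and 131 (12.9%) were lower in CG and higher in CHG, against 11.9%.

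Among the 2480 intergenic TEs, 303 (12.2%) were at least 10 points lower in CG, against 7.33% elsewhere, and 281 (11.3%) at least 10 points higher, against 19.1%. The first were also lower in CHG, by a mean change of -3.54 on chromosome 17 and of -6.68 elsewhere. In the 303 lower ones, mean CG was 85.8% in leaf and 64.2% in EC, CHG 63.4% and 59.9%, and CHH 3.30% and 30.9%. In the 281 higher ones, mean CG was 65.9% and 86.8%, CHG 52.2% and 71.2%, and CHH 3.01% and 36.0%. Across intergenic TEs of the chromosome, the CG and CHG changes correlated at r = 0.37 (rho 0.36, n = 2480), and across genic TEs at r = 0.11 (rho 0.07, n = 1015). On the other chromosomes r was 0.42 and 0.17. The points are TEs of the same 2 libraries and are not independent replicates.

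Along the chromosome, the CG change was examined in windows of 1 Mb, numbered from the chromosome start. All 18 windows held at least 20 TEs with a CG value. In 11 of them the mean was below zero (61.1%), compared with 97 of 415 windows (23.4%) on the other chromosomes. The chromosome was chosen by this same change, and the chromosomes nearest to it had 19 of 22 (chromosome 6) and 15 of 30 (chromosome 18). Intergenic CG was negative in 9 of 18 windows and genic CG in 12 of 16. The negative windows were 1, 2, 5, 10 to 16 and 18, so that those from 9 to 16 Mb formed an unbroken run.

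The lowest windows were 18 and 13. Window 18, the short end of the chromosome with 36 TEs in CG, went from 89.03% in leaf to 84.8% in EC, a change of -4.21 percentage points. Window 13, from 12 to 13 Mb with 269 TEs, went from 86.9% to 84.0%, a change of -2.91. The change was -3.09 in its intergenic TEs and -2.01 in its genic TEs. The 2 highest windows were 3 and 17. Window 3, from 2 to 3 Mb with 158 TEs, went from 78.7% to 82.8%, a change of 4.12, and window 17, from 16 to 17 Mb with 353 TEs, from 85.2% to 87.5%, a change of 2.26. Both classes were higher in EC in each of them, by 6.07 and 2.44 points in intergenic TEs.

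CHG and CHH kept 1 sign per class along the chromosome. Intergenic CHG was higher in EC in all 18 windows, from 0.0183 percentage points in window 10 to 9.63 in window 1, and genic CHG was lower in all 16 windows with at least 20 TEs, from -16.6 in window 11 to -0.778 in window 16. CHH was higher in EC in all windows for both classes, from 27.7 to 36.0 in intergenic TEs and from 8.31 to 24.3 in genic TEs. In window 3, which had the highest CG change, the CHG change was 6.08 in intergenic and -11.9 in genic TEs, near the chromosome means.

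**Figure D4:**
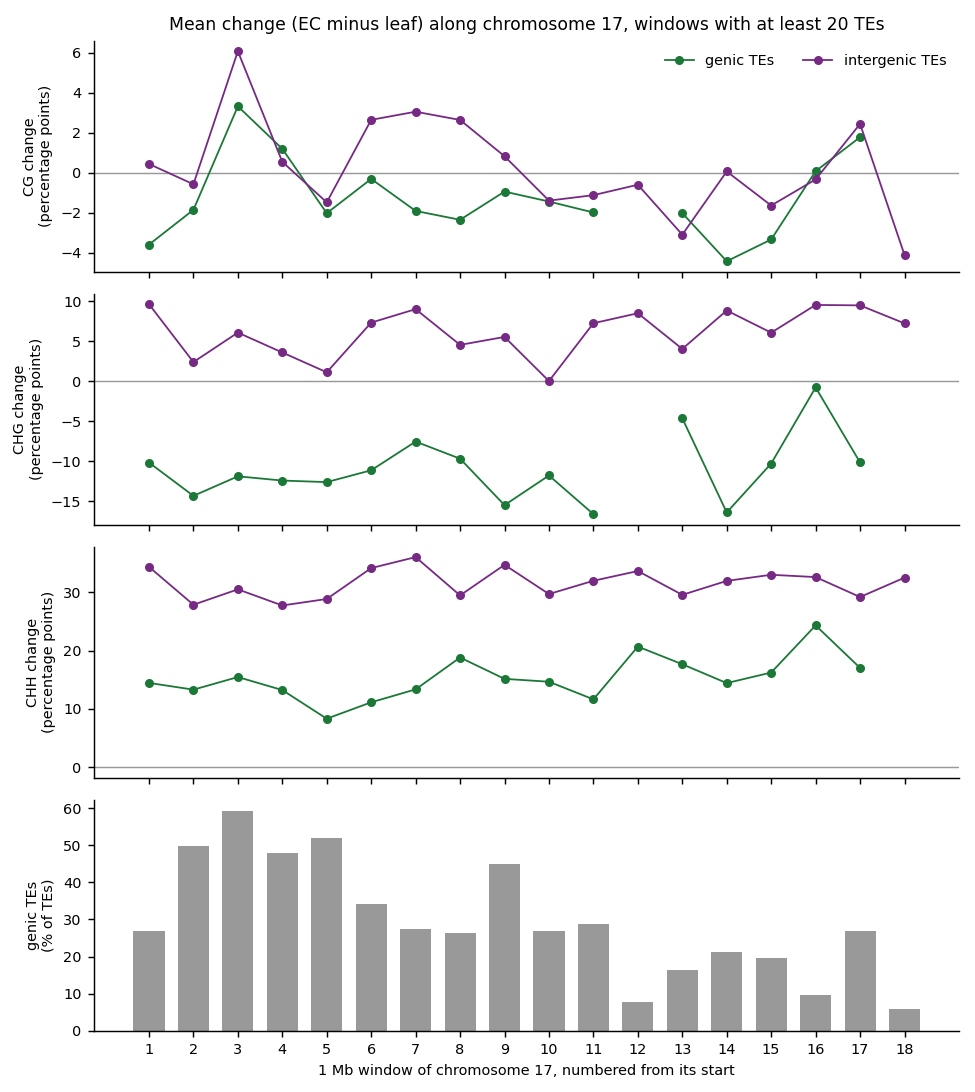
Mean change, EC minus leaf in percentage points, of genic and intergenic TEs in the 18 windows of 1 Mb of chromosome 17 (x axis), for CG, CHG and CHH, with the percentage of TEs that are genic in the lowest panel; windows with fewer than 20 TEs of a class carry no point. CG crosses zero several times, from 6.07 for intergenic TEs of window 3 to -4.41 for genic TEs of window 14, while intergenic CHG and CHH stay above zero throughout.

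The share of genic TEs per window ran from 5.77% in window 18 to 59.4% in window 3. It counts listed TEs, and genes themselves were not counted. Gene-poor and gene-rich therefore mean a low and a high share of genic TEs here. On every other chromosome the CG change was lower where more of the TEs were genic, with r across windows from -0.78 to -0.35 (median -0.62). On chromosome 17 it was not, with r = 0.48 (rho 0.42) over 18 windows. For intergenic TEs alone r was 0.50, against negative values on all 18 other chromosomes, and for genic TEs 0.45 over 16 windows, against negative values on 15 of 18. Chromosome 17 was also the only one with a positive r in windows of 0.5 Mb (0.22) and of 2 Mb (0.51).

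The size of this correlation rests on a few windows. Leaving out 1 window at a time gave r from 0.30 to 0.60, and leaving out the 2 windows farthest from the median genic share gave 0.43. Leaving out both the highest window (3) and the lowest (18) gave 0.12, against -0.78 to -0.23 on the other chromosomes with their own highest and lowest window left out. The windows share libraries, depth and neighbouring TEs, and the relation was noticed in these data. In CHG and CHH over both classes, r was -0.92 and -0.91 on chromosome 17, against medians of -0.86 and -0.80. The classes differ in these changes, so a pooled mean falls as the genic share rises. Within genic TEs r was -0.55 in CHG and -0.65 in CHH, against medians of -0.40 and -0.45. Within intergenic TEs it was -0.48 and -0.38, against -0.68 and -0.28. Intergenic CHH had a positive r on 6 of the 18 other chromosomes.

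**Figure D5:**
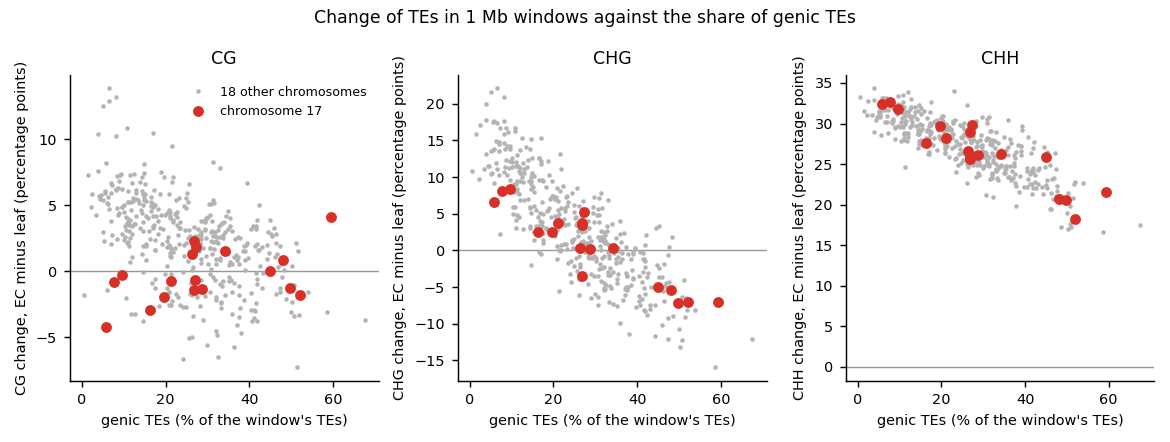
Mean change of all TEs in 1 Mb windows, EC minus leaf in percentage points (y axis), against the percentage of the window's TEs that are genic (x axis), for CG, CHG and CHH, with windows of chromosome 17 as large points and those of the 18 other chromosomes as small points. In CG the gene-poor windows of chromosome 17 lie in the lower part of the cloud and its most gene-rich window (59.4% genic, change 4.12) above it, whereas in CHG and CHH its windows lie along the cloud.

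The CG difference from the other chromosomes was seen in the gene-poor windows. The classes of genic share were set after the windows had been seen. In the 3 windows of chromosome 17 with under 15% genic TEs, the CG change over both classes was -0.724 percentage points, against 4.93 in 113 such windows elsewhere. The intergenic TEs there had 86.1% CG in leaf and 85.5% in EC, compared with 81.4% and 86.6% elsewhere. At 15 to under 30% genic, the change was -0.437 in 9 windows against 2.41 in 151. In the 5 windows with at least 45% genic TEs, it was 0.278 against -0.480 in 31 windows elsewhere, and this value rests on window 3. Without it the other 4 windows had -0.525.

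Over its 12 windows under 30% genic, chromosome 17 had a mean CG level of 85.5% in leaf, the highest of the 19 chromosomes, and 85.0% in EC, the 12th highest. Over its 6 windows at 30% or more, it had 80.1% and 80.6%, a change of 0.496, which was the 5th lowest. In CHG, the change in the windows under 15% genic was 8.16 on chromosome 17 and 11.6 elsewhere, and in those of at least 45% it was -6.29 and -6.84. On chromosome 6, the single chromosome with a lower CG change, the gene-poor windows were low as well, at -1.02 under 15% genic, and those at 30 to under 45% were lower still, at -3.08.

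At a finer scale, 79 of 164 windows of 100 kb with at least 10 TEs (48.2%) had a negative mean CG change, against 28.6% of 3785 windows elsewhere. The mean change was -5 percentage points or lower in 24 (14.6%), against 7.48%, and 5 or higher in 13 (7.93%), against 27.9%. The chromosome had about as many windows on either side of zero, where most windows elsewhere lay above it. Chromosome 17 was chosen by this same change, which favours such a balance.

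The 3 lowest windows of 100 kb lay apart from each other. At 10.6 to 10.7 Mb, CG went from 80.6% to 61.1% over 19 TEs, 15 of them lower in EC, with single TEs from -84.2 to 10.7 points and a median of -5.56. CHG was also lower there, 54.5% and 41.6%, while CHH went from 2.55% to 27.3%. At 13.8 to 13.9 Mb, CG went from 88.98% to 75.9% over 18 intergenic TEs, 16 of them lower, with a median of -10.89. CHG was 66.8% and 66.9% there. At 4.6 to 4.7 Mb, CG went from 84.2% to 71.5% over 22 TEs, 14 of them lower and 8 higher. The median there was -6.905 and the lowest value -66.4 points. These windows were picked for their low means, which single TEs carry in part, as the medians are smaller in size.

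The 3 highest windows all lay between 2.0 and 2.4 Mb, within window 3. At 2.2 to 2.3 Mb, CG went from 68.9% to 82.6% over 13 TEs, 11 of them higher in EC, with a median of 4.91 and a highest value of 78.2 points. At 2.0 to 2.1 Mb, it went from 72.9% to 84.0% over 15 TEs, 13 higher, with a median of 7.99. At 2.3 to 2.4 Mb, it went from 78.8% to 87.6% over 11 TEs, 7 higher, with a median of 3.09. The means of these small windows are carried in part by single TEs, as their medians are smaller.

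Single TEs of at least 1000 bp were named as the furthest above and the furthest below their leaf level per class and context. Positions are those of the deposited tables on the 12X assembly of PN40024, whose starts, which count from 0, were raised by 1. No TE family or gene name was used here. Among 366 genic TEs, the TE furthest above its leaf level in CG was chr17:4821811-4822828 on the minus strand, an element of 1018 bp that went from 3.06% to 70.4%. The same TE went from 0% to 58.9% in CHG, also the furthest genic TE in that context, and from 0.03% to 16.3% in CHH. An element nearly free of methylation in leaf thus carried it in all 3 contexts in EC.

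The genic TE furthest below its leaf level in CG was chr17:4642191-4643204 on the plus strand, which went from 67.6% to 32.8%. This TE had next to no CHG in either tissue, 0.70% and 1.15%, and it lies in the 100 kb window of 4.6 to 4.7 Mb given above. In CHG it was chr17:7400760-7402167 on the minus strand, which went from 77.5% to 10.5%, at CG levels of 89.9% and 72.5%. For genic CHH, 93.7% of TEs of any length on chromosome 17 were higher in EC, against 92.8% elsewhere. Of the 380 of at least 1000 bp on the chromosome, 378 were higher. The largest difference was at chr17:8364429-8365602, from 2.24% to 74.2%, and the lowest, at chr17:10109611-10111081, was from 7.43% to 5.42%, in a TE whose CHG went from 94.3% to 45.8%.

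Among 916 intergenic TEs of at least 1000 bp, the one furthest below its leaf level in CG was chr17:5273894-5274937, which went from 51.5% to 2.53%, again with next to no CHG (0.64% and 3.39%). The one furthest above was chr17:6985510-6986915, which went from 50.8% to 93.8%, where CHG went from 24.1% to 80.4% and CHH from 7.98% to 62.3%. In CHG the TE furthest below, chr17:12146769-12147797, went from 73.1% to 12.5% while CG was 92.4% and 89.9%. The TE furthest above, chr17:13155243-13156266, went from 22.3% to 80.3%.

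Of intergenic TEs of any length, 98.5% were higher in CHH in EC on chromosome 17 and 98.4% elsewhere. All 948 of at least 1000 bp on the chromosome were higher. The smallest change, 0.66 points, was at chr17:11362756-11364142, a TE with 22.3% CG and 0.33% CHG in leaf and 4.90% CG in EC. The largest, at chr17:16200401-16201411, was from 0.43% to 67.6%, in a TE with 98.0% CHG in leaf and 91.2% in EC. Both TEs named for lower CG thus had almost no CHG methylation in either tissue, while both TEs named for lower CHG still had CG levels of 72.5% and 89.9% in EC.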

How the data were processed

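Whole-genome bisulphite sequencing was performed on 1 leaf and 1 EC library (TruSeq DNA Methylation kit). The authors mapped the reads to the 12X assembly of PN40024 with BS-Seeker2, called methylation with cgmaptools, took TEs from RepeatMasker and deposited the methylation fraction of each TE that reached an effective coverage of more than 20 in leaf and in EC, in 6 tables by context and class. BEDTools was used by them to find TEs that overlap genes. Since Chardonnay reads were mapped to another genotype, a C-to-T difference in sequence reads as absent methylation in both libraries. Profile tables over the whole genome (2) were not used, as they give no chromosome.

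Here fractions were multiplied to percentages with Python 3.11.15, NumPy 2.4.6 and pandas 2.3.3, and the difference EC minus leaf was averaged with each TE given equal weight. Libraries were grouped by their tissue labels. TEs were assigned to windows by their midpoint, and windows with at least 20 TEs were kept (10 for windows of 100 kb, which were added after seeing the data). TE length is end minus start. With 1 library per tissue no p-value was computed and the labels allow no pairing. A difference of 10 percentage points, chosen as a round value, was used to count TEs, with 5 and 20 as alternatives. Named windows were the 2 lowest and the 2 highest of 1 Mb, and named TEs were those of 1000 bp or longer with the most positive and the most negative change in each class and context. The members, classes and alternatives were chosen with earlier results of these data known. The scripts were tested on simulated data with known changes.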

Additional observations from a re-analysis of the deposited data

How the results depend on the processing

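The CG difference of chromosome 17 from the other chromosomes kept its sign in all alternatives for both classes. It ran from -3.77 to -1.95 percentage points for intergenic TEs and from -1.95 to -0.655 for genic TEs. The chromosome was chosen by its pooled CG change, which favours this sign, and the alternatives reuse the same values. The sign of the chromosome's own CG change was not kept. The pooled value of -0.232 was 0.57 as a median, 0.111 for TEs of at least 500 bp and 0.0121 when weighted by TE length. The genic value of -0.922 was 0.305 as a median and 0.0244 for TEs of at least 500 bp, and the intergenic value of 0.0445 was negative without any 1 of windows 3, 6, 7, 8 and 17, at the lowest -0.187 without window 17. The genic CHG change of -11.6 was -4.33 as a median and -16.7 for TEs at 20% or more in either tissue.

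For CHH, the genic change of 14.4 was 10.03 as a median, 31.7 for TEs at 20% or more in either tissue, 17.7 for TEs of at least 500 bp and 19.5 weighted by length, and the intergenic change of 31.7 was 36.7 at 20% or more, 32.7 for TEs listed in all 3 contexts, 33.5 for TEs of at least 500 bp and 33.5 weighted by length. The CHH difference from the other chromosomes had no stable sign. For genic TEs it was -1.14, and 0.0494 weighted by length. For intergenic TEs it was 0.115, and -0.39 as a median, -0.238 at 20% or more, -0.204 in all 3 contexts, -0.223 at 500 bp, -0.0207 weighted by length, -0.101 at the lowest without 1 window and -0.00291 weighted to leaf levels. The window correlation of 0.48 was 0.22 in windows of 0.5 Mb and 0.12 without the highest and lowest window. The causes were not tested.

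At 5 percentage points, 774 intergenic TEs were higher and 726 lower in CG, and at 20 points 132 and 160. For genic TEs these counts were 265 and 277, and 33 and 65. The CG change of windows with at least 45% genic TEs, 0.278, was -0.525 without window 3. In total 182 alternative values were computed for 29 results, and 15 of them changed sign. Weighting to gene share, the correlations without windows and in other windows and the value without window 3 were added after seeing the data. The smaller the TE, the less its value can be relied on at unknown depth, and no replicate bounds any value.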

Other observations

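A further 387 TEs lie on the random sequence of chromosome 17, which has no place within the chromosome. Their CG level was 85.4% in leaf and 84.3% in EC over 261 TEs, a change of -1.07 percentage points, and 45.2% of them were higher in EC. The change was -1.43 in 218 intergenic TEs and 0.732 in 43 genic TEs, so the sign of the class difference was opposite to that on the placed chromosome. CHG was 65.6% in leaf and 76.6% in EC in intergenic TEs and 56.0% and 50.2% in genic TEs. CHH was 2.77% in leaf and 33.3% in EC over both classes. These TEs were longer, with a median of 507 bp, and 16.0% of them were genic.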
